A study of Homo sapiens with 12 samples.

Results

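PTPN14 siRNA and LATS siRNA were compared with each other in 3 established human kidney lines, A704, HK2 and CAKI-1. The comparison used 9 of the 12 libraries of the series: 6 with PTPN14 siRNA (3 with the reagent called PTPN14-1 and 3 with PTPN14-2) and 3 with LATS siRNA, chosen by their column labels; libraries with control siRNA were not used. A704 and CAKI-1 were derived from renal cancers, and HK2 from normal kidney by immortalisation. Each siRNA was transfected at 25 nM with a lipid reagent and polyA RNA was taken after 48 h, with 1 library for each reagent in each line. The labels do not say which LATS gene the LATS siRNA was aimed at, nor whether the libraries of a line were separate cultures; the p-values below therefore reflect only how far these libraries spread, which may be technical. All 9 carried a siRNA against a Hippo pathway regulator, so every value below is a difference between 2 perturbed states. Whether such a difference came with the PTPN14 siRNA or with the LATS siRNA cannot be told apart in these 9 libraries.

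The Hippo pathway is a kinase cascade that restrains growth. Its kinases LATS1 and LATS2 phosphorylate the coactivators YAP1 and WWTR1 (TAZ), which keeps them out of the nucleus, where they otherwise bind TEAD transcription factors and switch on genes such as CTGF and CYR61. PTPN14, a cytoplasmic tyrosine phosphatase, also binds and restrains YAP1. In kidney, YAP1 and WWTR1 have been studied in epithelial growth, fibrosis and renal tumours.

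The low values put the depth at 16.9 M reads in the shallowest library, HK2 with PTPN14-1, and at 23.2 M in the deepest, CAKI-1 with LATS siRNA. FPKM, the fragments counted per kilobase of transcript and per unit of depth, exceeded 1 for 10862 to 11082 genes in each library. The RNA integrity number was 10 in all 9. All 15 kidney epithelial markers, among them KRT8, KRT18 and PAX8, exceeded 1 FPKM in at least 1 library, with summed levels of 341.8 to 925.8 FPKM with PTPN14 siRNA and 445 to 927.3 FPKM with LATS siRNA. Only 7 of 17 proximal tubule markers did so, and the anion transporters SLC22A6 and SLC22A8 were at 0. Of 9 loop and collecting duct markers, the sodium channel subunit SCNN1A exceeded 1 FPKM, at up to 43.9 FPKM, and the water channel AQP2 was at 0. Of 8 leukocyte markers, CD68, a lysosomal protein that other cells also make, was at 17.7 to 198 FPKM, while CD3E was at 0 and PTPRC reached at most 0.04 FPKM. None of 7 endothelial markers reached 1 FPKM. Of 9 fibroblast and mesenchymal markers, 6 exceeded 1 FPKM in at least 1 library. VIM was at 318 to 1538 FPKM and LUM reached 74.4 FPKM, while PDGFRA reached at most 0.05 FPKM. The epithelial markers EPCAM and CDH1 ranged from 0.03 to 33.0 FPKM and from 0.04 to 21.4 FPKM, so the profile was not epithelial alone.

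**Figure D1:**
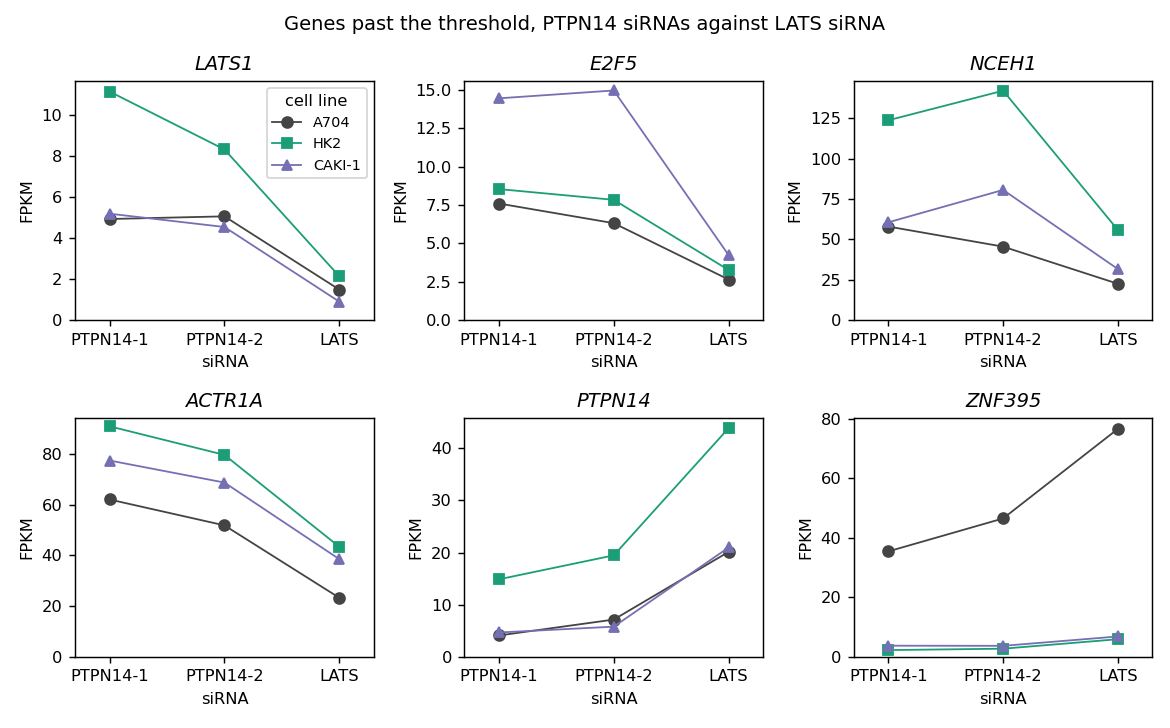
Level in FPKM (vertical axis, linear, from 0) of the 6 genes past the threshold by siRNA (horizontal axis); each point is 1 library and each line joins the 3 libraries of 1 cell line. In the panels of LATS1, E2F5, NCEH1 and ACTR1A the LATS siRNA library is the lowest of each line, and in those of PTPN14 and ZNF395 it is the highest.

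The PTPN14 transcript set the libraries apart as the labels say. PTPN14 stood at 4.09, 14.9 and 4.66 FPKM in A704, HK2 and CAKI-1 with PTPN14-1 and at 7.14, 19.5 and 5.78 FPKM with PTPN14-2, against 20.1, 43.9 and 21.0 FPKM with LATS siRNA. Every PTPN14 siRNA library lay below the LATS siRNA library of its line, at 20.3 to 44.4% of its level, and the groups did not overlap. The log2 difference was -1.62 (SE 0.16, n = 6 against 3, limma adjusted p = 0.00479). PTPN14 lies on chromosome 1 at 214348696 to 214552449 (GRCh38, minus strand). In bulk RNA, fewer cells with a transcript and less of it in each cell cannot be told apart.

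LATS1 moved the other way. It stood at 4.94, 11.2 and 5.20 FPKM in A704, HK2 and CAKI-1 with PTPN14-1 and at 5.07, 8.34 and 4.55 FPKM with PTPN14-2, against 1.49, 2.14 and 0.90 FPKM with LATS siRNA. The groups did not overlap, and the PTPN14 siRNA libraries were 3.32 to 5.78 times as high as the LATS siRNA library of their line (log2 difference 1.55, SE 0.12, limma adjusted p = 0.00168). LATS1 lies on chromosome 6 at 149658153 to 149718256, minus strand. The related kinase LATS2 stood at 14.9, 12.6 and 10.9 FPKM with PTPN14-1 and at 12.4, 8.27 and 7.94 FPKM with PTPN14-2, against 13.1, 8.02 and 8.82 FPKM with LATS siRNA. The groups overlapped for LATS2, and it did not pass (0.15, SE 0.14, adjusted p = 0.643).

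The coactivator transcripts lay close together in both states. YAP1 was at 34.6, 27.9 and 21.3 FPKM in A704, HK2 and CAKI-1 with PTPN14-1 and at 31.6, 24.3 and 19.2 FPKM with PTPN14-2, against 33.0, 22.6 and 17.6 FPKM with LATS siRNA (log2 difference 0.13, SE 0.08, limma adjusted p = 0.494). WWTR1 was above the LATS siRNA library of its line in all 6 PTPN14 siRNA libraries, by 1.12 to 1.56 times, and missed the threshold (0.39, SE 0.10, adjusted p = 0.241). With PTPN14-1 alone WWTR1 passed (0.47, SE 0.10, adjusted p = 0.0267), while PTPN14-2 gave 0.30 (SE 0.10, adjusted p = 0.139); the difference between the siRNAs did not pass (adjusted p = 0.354). The PTPN14-1 call for WWTR1 held in 5 of 9 fits with 1 library left out and ended under quantile normalization (adjusted p = 0.0552).

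Beyond PTPN14 and LATS1, 4 genes separated PTPN14 siRNA from LATS siRNA in every line. E2F5, NCEH1 and ACTR1A were higher with PTPN14 siRNA and ZNF395 was lower. With PTPN14 and LATS1 they make 6 of 12103 genes past an adjusted p of 0.05, which is 0.0496% of those tested (4 higher, 0.0330%, and 2 lower, 0.0165%). At an unadjusted p under 0.05 there were 1754 genes, or 14.5%, of which 877 were higher and 877 lower (7.25% each). All 6 PTPN14 siRNA libraries lay above the LATS siRNA library of their line at 8.65% of genes, and all 6 below it at 7.90%.

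E2F5 encodes an E2F family transcription factor that acts mainly as a repressor of cell cycle genes. It stood at 7.59, 8.53 and 14.4 FPKM in A704, HK2 and CAKI-1 with PTPN14-1 and at 6.31, 7.83 and 14.95 FPKM with PTPN14-2, against 2.64, 3.26 and 4.23 FPKM with LATS siRNA. The lowest of the PTPN14 siRNA values was above the highest of the LATS siRNA values, and the within-line ratios ran from 2.39 to 3.53 (log2 difference 1.27, SE 0.11, limma adjusted p = 0.00240).

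NCEH1 encodes an enzyme that hydrolyses cholesterol esters. Its level was 58.0, 124 and 60.6 FPKM in A704, HK2 and CAKI-1 with PTPN14-1 and 45.5, 142 and 80.7 FPKM with PTPN14-2, against 22.5, 55.8 and 31.6 FPKM with LATS siRNA. HK2 was the highest line under each siRNA, and each PTPN14 siRNA library was 1.92 to 2.58 times as high as the LATS siRNA library of its line (1.17, SE 0.11, limma adjusted p = 0.00376). NCEH1 lies on chromosome 3 at 172630249 to 172711218, minus strand.

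ACTR1A encodes the actin-related protein at the core of dynactin, the cofactor of the dynein motor. It was at 62.1, 91.0 and 77.5 FPKM in A704, HK2 and CAKI-1 with PTPN14-1 and at 51.9, 79.7 and 68.8 FPKM with PTPN14-2, against 23.3, 43.4 and 38.5 FPKM with LATS siRNA. The groups did not overlap, with ratios of 1.78 to 2.67 within lines (1.04, SE 0.10, limma adjusted p = 0.00376). ACTR1A lies on chromosome 10 at 102461881 to 102502711, minus strand.

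ZNF395 encodes a zinc finger protein of the nucleus. A704 held far more of it than the other lines, at 35.4 FPKM with PTPN14-1 and 46.5 FPKM with PTPN14-2, against 76.6 FPKM with LATS siRNA. In HK2 it was at 2.25 and 2.72 FPKM with the PTPN14 siRNAs, against 5.91 FPKM with LATS siRNA, and in CAKI-1 at 3.73 and 3.68 FPKM, against 6.83 FPKM. All 6 PTPN14 siRNA libraries lay at 38.1 to 60.7% of the LATS siRNA level of their line (log2 difference -0.88, SE 0.10, limma adjusted p = 0.0154).

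Another 4 genes moved in 1 direction in all 6 within-line differences and missed the threshold. TVP23B, a Golgi membrane protein, was at 0.65 (SE 0.09, limma adjusted p = 0.0544), with 1.34 to 1.95 times the LATS siRNA level of the line. TTYH3, a tweety family membrane protein, was at -1.04 (SE 0.15, adjusted p = 0.0595), with 20.7, 12.7 and 15.2 FPKM in A704, HK2 and CAKI-1 with PTPN14-1 and 32.7, 11.8 and 14.7 FPKM with PTPN14-2, against 55.1, 20.8 and 39.7 FPKM with LATS siRNA. FAM174A, a single-pass membrane protein, and FAM117A were at -0.76 (SE 0.12, adjusted p = 0.0799) and -0.69 (SE 0.11, adjusted p = 0.0811).

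The 6 calls rest on the 3 LATS siRNA libraries. The count was 2 without the A704 LATS library (LATS1 and E2F5), 2 without the HK2 LATS library and 0 without the CAKI-1 LATS library, where LATS1 had an adjusted p of 0.0586 and E2F5 0.0531. Without any 1 PTPN14 siRNA library it was 5 to 8. The log2 differences held their size in these fits: that of LATS1 stayed between 1.45 and 2.04 and that of PTPN14 between -1.77 and -1.52 over all alternatives.

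**Figure D2:**
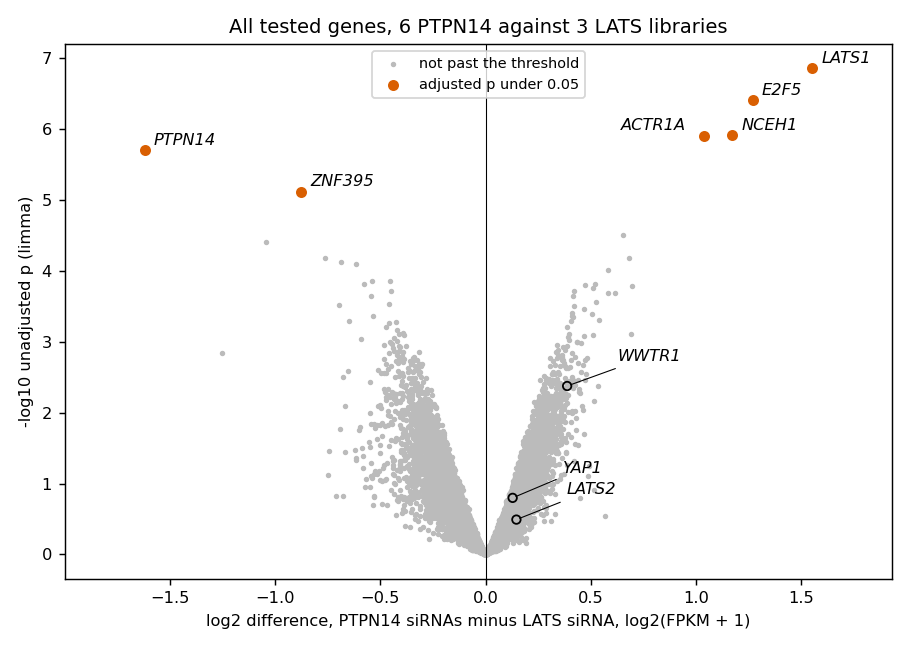
Log2 difference between PTPN14 siRNAs and LATS siRNA (horizontal axis, log2(FPKM + 1) scale) against -log10 of the unadjusted limma p (vertical axis) for the 12103 genes tested; filled coloured points have an adjusted p under 0.05 and open circles mark LATS2, YAP1 and WWTR1. LATS1, E2F5, NCEH1 and ACTR1A stand apart on the right and PTPN14 and ZNF395 on the left.

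One library property moved with the comparison across all genes. The log2 difference between PTPN14 and LATS siRNA followed the GC content of the transcripts, with a Spearman rho of -0.614 across the 11668 tested genes that have a GENCODE transcript (96.4%). Genes are not independent replicates and all differences of a line share its LATS siRNA library. In the 2917 genes with the highest GC content (56.5 to 74.5%) the median difference was -0.137 and 86.8% of genes had lower estimates with PTPN14 siRNA, while in the 2917 with the lowest (30.2 to 41.9%) the median was 0.114 and 17.8% were lower. Within lines rho ran from -0.721 (CAKI-1 with PTPN14-2) to 0.00138 (A704 with PTPN14-1). Subtracting the GC trend of each library, an alternative added after the values were seen, left all 6 calls in place, with TVP23B as a further one (0.58, adjusted p = 0.0404). It took the genes at an unadjusted p under 0.05 to 1029.

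**Figure D3:**
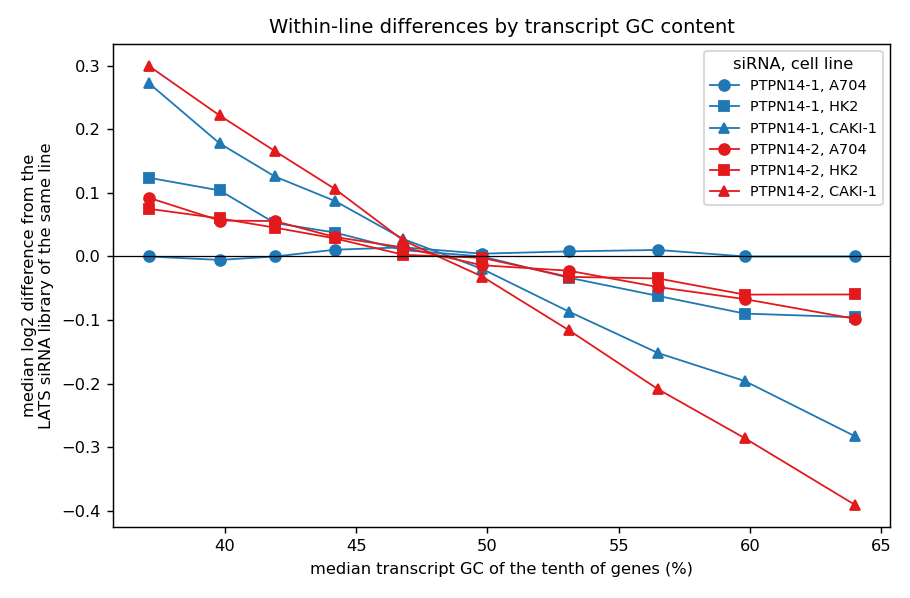
Median log2 difference of each PTPN14 siRNA library from the LATS siRNA library of its line (vertical axis) over 10 equal bins of the tested genes ordered by transcript GC content (horizontal axis, median % of each bin); each line is 1 library. Both CAKI-1 lines fall the most, to -0.283 with PTPN14-1 and -0.391 with PTPN14-2 at the highest GC content, and the A704 PTPN14-1 line stays within 0.0144 of 0.

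Taken singly, the PTPN14 siRNAs differed from LATS siRNA at many more genes, most of them lower. With PTPN14-1, 605 genes passed (5.0%), 231 higher (1.91%) and 374 lower (3.09%); with PTPN14-2, 186 passed (1.54%), 65 higher (0.537%) and 121 lower (1.00%). Both comparisons share the same 3 LATS siRNA libraries. Tested against each other, the PTPN14 siRNAs differed at 1037 genes (8.57%), 475 higher (3.92%) and 562 lower (4.64%) with PTPN14-1, and this divergence is part of the spread in the joint comparison above. The mean of both PTPN14 siRNAs differed from LATS siRNA at 190 genes (1.57%; 74 higher, 0.611%, and 116 lower, 0.958%) when that divergence was kept out of the spread.

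These counts depend on single libraries, as do many calls of single genes: of the calls of named genes, 21 of 60 with PTPN14-1 and 17 of 42 with PTPN14-2 held in all 9 fits with 1 library left out. The PTPN14-1 count was 126 without the HK2 and 206 without the CAKI-1 PTPN14-1 library, and 319, 165 and 105 with the LATS library of A704, HK2 or CAKI-1 left out. The PTPN14-2 count was 285 without the A704 PTPN14-1 library, 91 and 58 without the A704 and CAKI-1 PTPN14-2 libraries, and 92, 78 and 48 with the LATS library of A704, HK2 or CAKI-1 left out.

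Genes with large differences from LATS siRNA under 1 PTPN14 siRNA were taken by size after the values were seen. SUMF1, which activates sulfatases, stood at 9.09, 1.72 and 6.07 FPKM in A704, HK2 and CAKI-1 with PTPN14-1 and at 20.7, 8.60 and 21.2 FPKM with PTPN14-2, against 17.5, 8.66 and 22.4 FPKM with LATS siRNA. It was low in the PTPN14-1 libraries alone (log2 difference -1.48, SE 0.15, limma adjusted p = 0.000848; 0.05 with PTPN14-2). OSTC, a subunit of the oligosaccharyltransferase that glycosylates new proteins, was at -1.26 (SE 0.09, adjusted p = 4.48e-05) with PTPN14-1 and -0.23 (SE 0.09) with PTPN14-2. LIPA, the lysosomal acid lipase, was at -1.08 (SE 0.09, adjusted p = 0.000205) and -0.02, and PABPC1, the cytoplasmic poly(A)-binding protein, at -1.37 (SE 0.22, adjusted p = 0.0152) and 0.02. PABPC1 did not pass without the CAKI-1 PTPN14-1 library (adjusted p = 0.0842) or the HK2 LATS library (0.0719). Higher with PTPN14-1 were RCC2, a regulator of chromosome condensation and small GTPases, at 0.90 (SE 0.10, adjusted p = 0.000807), and NRG1, a ligand of ERBB receptors, at 0.74 (SE 0.10, adjusted p = 0.00277). PTPN14-2 gave 0.48 for RCC2, which passed (adjusted p = 0.0326), and 0.33 for NRG1, which did not (0.106).

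With PTPN14-2 the linker histone gene H1FX was the lowest against LATS siRNA. It stood at 5.15, 6.37 and 9.66 FPKM in A704, HK2 and CAKI-1 with PTPN14-1 and at 2.17, 2.90 and 4.29 FPKM with PTPN14-2, against 8.98, 12 and 17.5 FPKM with LATS siRNA. Both PTPN14 siRNAs passed, PTPN14-2 at -1.73 (SE 0.09, limma adjusted p = 1.86e-06) and PTPN14-1 at -0.77 (SE 0.09, adjusted p = 0.000888), and they also differed from each other (adjusted p = 0.000157). CD99, a surface glycoprotein, was at -1.38 (SE 0.12, adjusted p = 0.000193) with PTPN14-2 and -0.12 with PTPN14-1. ACLY, which makes cytosolic acetyl-CoA for lipid synthesis, was at -1.06 (SE 0.11, adjusted p = 0.000555) and -0.07. ETS1, a transcription factor downstream of growth factor signalling, took opposite directions: it was at 46.2, 80.4 and 38.5 FPKM with PTPN14-1 and at 16.1, 19.1 and 10.3 FPKM with PTPN14-2, against 32.7, 54.2 and 21.9 FPKM with LATS siRNA. The LATS siRNA level lay between the others in every line, and each contrast passed (0.61, SE 0.11, adjusted p = 0.0124 with PTPN14-1; -1.15, SE 0.11, adjusted p = 0.000382 with PTPN14-2). ANKRD13A, which binds ubiquitin chains on internalised receptors, was higher with PTPN14-2 (0.84, SE 0.10, adjusted p = 0.00140) and with PTPN14-1 (0.56, SE 0.10, adjusted p = 0.0119).

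In the joint comparison no member of the 29 gene lists passed; PTPN14 and LATS1 are in none of them. Of 30 tested Hippo regulators, 23 had higher estimates with PTPN14 siRNA than with LATS siRNA (median 0.10, against -0.0037 and 49.0% higher estimates over all tested genes). With PTPN14-1, 3 of the 30 passed, all higher, against 1.91% of all tested genes. These were AMOTL2, an angiomotin that binds YAP1 (0.44, SE 0.08, limma adjusted p = 0.0123), FRMD6, a FERM domain protein upstream of the kinases (0.81, SE 0.15, adjusted p = 0.0130), and AJUBA, a LIM protein that binds LATS kinases (0.39, SE 0.08, adjusted p = 0.0209). With PTPN14-2 none of the 30 passed, and these 3 stood at -0.09, -0.19 and 0.01. AMOTL2, AJUBA and LATS2 are on the list of YAP/TAZ targets as well, so the counts of this list and of that one overlap. With the GC trend subtracted, the median of the joint comparison was 0.0588, 4 regulators passed upward with PTPN14-1, LATS2 being the further one (0.38, adjusted p = 0.0338), and 1 downward with PTPN14-2, MOB1B, an adaptor of the LATS kinases (-0.68, adjusted p = 0.00925).

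Some YAP/TAZ target genes were higher with PTPN14-1 than with LATS siRNA, CYR61, NUAK2 and CTGF among them, and 2 were lower with PTPN14-2. Of 26 tested targets, 7 passed upward and 0 downward with PTPN14-1 (median 0.28), against 1.91% and 3.09% of all tested genes. With PTPN14-2, 0 passed upward and 2 downward (median -0.07), against 0.537% and 1.00%. The direct contrast between the siRNAs gave 11 of 26 higher with PTPN14-1 and 0 lower, against 3.92% and 4.64% of all tested genes. For 3 of the 7, the promoters in RefSeq (GRCh38.p14) hold the core motif of TEAD factors, GGAATG, more than once on either strand (read as CATTCC on the other), and they are shown here for those letters; capitals mark each match, and each window is 300 bases long, most of it upstream of the annotated start.
CTGF, chr6:131951323-131951622, minus strand: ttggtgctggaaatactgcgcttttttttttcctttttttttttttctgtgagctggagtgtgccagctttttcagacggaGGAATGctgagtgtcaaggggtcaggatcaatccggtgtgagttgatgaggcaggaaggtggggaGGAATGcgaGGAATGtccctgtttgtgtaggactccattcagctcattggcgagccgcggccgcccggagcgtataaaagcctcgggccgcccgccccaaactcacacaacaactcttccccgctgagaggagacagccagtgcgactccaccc
ANKRD1, chr10:90921038-90921337, minus strand: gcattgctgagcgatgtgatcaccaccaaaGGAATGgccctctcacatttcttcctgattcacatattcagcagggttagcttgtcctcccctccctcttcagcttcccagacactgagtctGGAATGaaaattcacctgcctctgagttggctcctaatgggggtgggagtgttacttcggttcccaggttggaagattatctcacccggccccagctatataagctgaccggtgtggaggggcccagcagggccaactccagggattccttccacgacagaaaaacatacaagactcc
NUAK2, chr1:205321696-205321995, minus strand: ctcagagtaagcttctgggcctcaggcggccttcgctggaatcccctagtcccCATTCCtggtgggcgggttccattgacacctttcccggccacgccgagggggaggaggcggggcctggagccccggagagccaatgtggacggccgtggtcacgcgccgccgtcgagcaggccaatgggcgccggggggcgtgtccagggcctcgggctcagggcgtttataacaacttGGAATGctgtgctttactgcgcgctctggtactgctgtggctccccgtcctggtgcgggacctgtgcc

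Such a match is a description of the letters and not a site. The motif was present in 6 of the 18 targets with a promoter in the table (33.3%), in 10.6% of the 9938 tested genes with one and in 14% of all 27305 promoters. Besides CTGF, ANKRD1 and NUAK2 these were THBS1 and TGFB2, which were lower with PTPN14-2, and LATS2, which passed with neither siRNA. It was absent from the windows of AMOTL2 and AJUBA, and CYR61 and CRIM1 were not among the 18.

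CTGF, a secreted matricellular protein widely used as a reporter of YAP activity, has 3 matches. It stood at 5.94, 20.9 and 29.4 FPKM in A704, HK2 and CAKI-1 with PTPN14-1 and at 4.02, 19.7 and 17.6 FPKM with PTPN14-2, against 4.06, 15.4 and 20.2 FPKM with LATS siRNA. PTPN14-1 was the highest siRNA in each line (log2 difference 0.47, SE 0.11, limma adjusted p = 0.0391), and PTPN14-2 lay on either side of LATS siRNA (0.05, SE 0.11, adjusted p = 0.839). CYR61, its close relative, was at 152, 733 and 130 FPKM with PTPN14-1 and at 120, 554 and 74.4 FPKM with PTPN14-2, against 89.5, 593 and 75.2 FPKM with LATS siRNA. It passed with PTPN14-1 (0.61, SE 0.12, adjusted p = 0.0152) and not with PTPN14-2 (0.10, SE 0.12, adjusted p = 0.643).

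NUAK2, a kinase of the AMPK family with 2 matches, was at 12.2, 28.5 and 20.4 FPKM in A704, HK2 and CAKI-1 with PTPN14-1 and at 5.22, 20.3 and 11.1 FPKM with PTPN14-2, against 5.93, 20.2 and 14.8 FPKM with LATS siRNA. Here too PTPN14-1 was the highest in each line (0.61, SE 0.12, limma adjusted p = 0.0152; -0.18 with PTPN14-2), and the siRNAs differed from each other (adjusted p = 0.00251). ANKRD1, an ankyrin repeat protein with 2 matches, was at 0.59 (SE 0.15, adjusted p = 0.0469) with PTPN14-1 and 0.19 with PTPN14-2, with its largest ratio, 2.56, in CAKI-1. CRIM1, a transmembrane protein that binds BMPs, was above LATS siRNA in all 6 libraries (0.48, SE 0.09, adjusted p = 0.0152 with PTPN14-1; 0.26, SE 0.09, adjusted p = 0.145 with PTPN14-2).

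The targets lower with PTPN14-2 were secreted proteins. THBS1, thrombospondin 1, was at 75.0, 11.2 and 104 FPKM in A704, HK2 and CAKI-1 with PTPN14-1 and at 42.7, 2.85 and 52.99 FPKM with PTPN14-2, against 68.7, 5.44 and 96.2 FPKM with LATS siRNA. PTPN14-2 was the lowest siRNA in each line (-0.75, SE 0.15, limma adjusted p = 0.0379). TGFB2, a ligand of the TGF-beta receptors, was likewise lowest with PTPN14-2 (-0.68, SE 0.12, adjusted p = 0.0143; 0.13 with PTPN14-1). Leaving out single libraries ended each of these 9 target calls in at least 2 fits; without the CAKI-1 PTPN14-1 library, for example, CTGF had an adjusted p of 0.183 and ANKRD1 0.200, and without the CAKI-1 LATS library THBS1 had 0.238. The median GC content of the target list was 46.9%, near the 48.1% of all tested genes, and after the GC trend was subtracted 9 targets passed upward with PTPN14-1 and 2 downward with PTPN14-2.

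**Figure D4:**
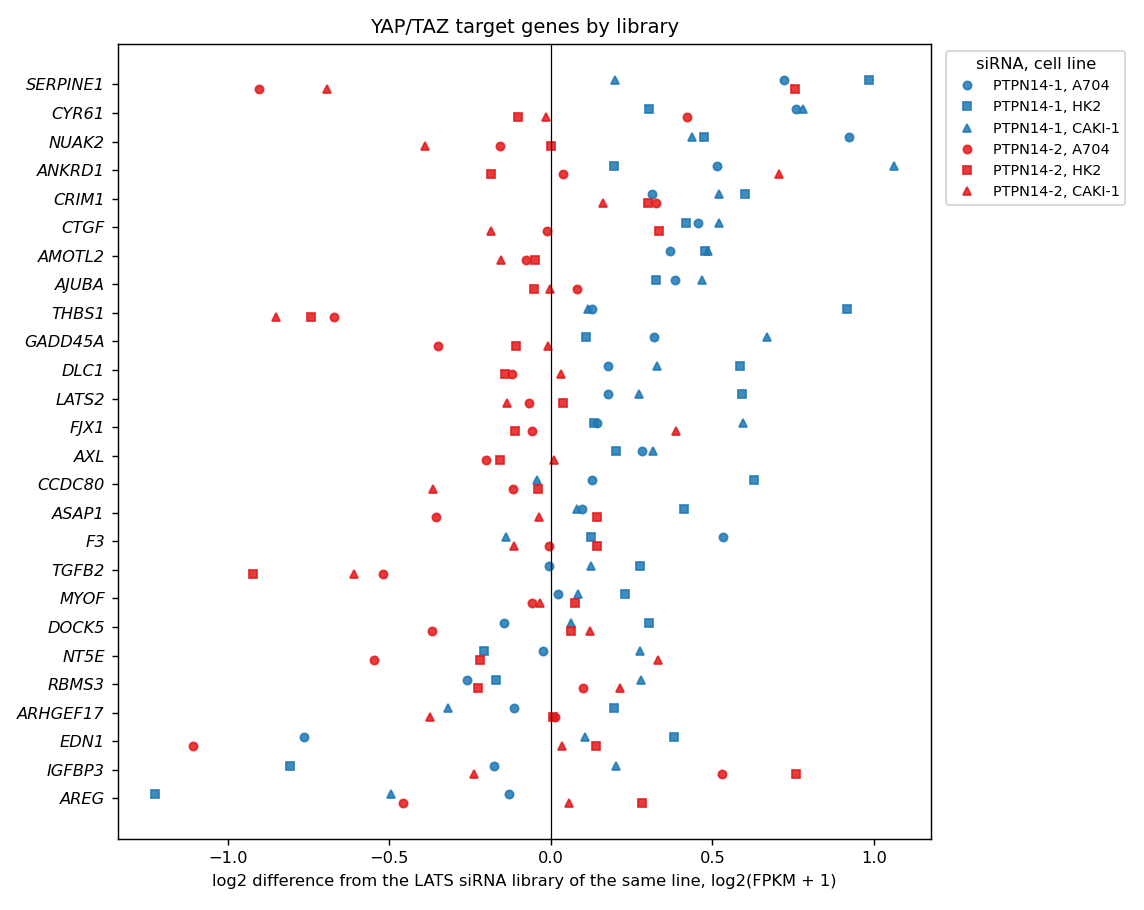
Log2 difference of each PTPN14 siRNA library from the LATS siRNA library of its line (horizontal axis, log2(FPKM + 1) scale) for the 26 tested YAP/TAZ target genes (vertical axis, ordered by the PTPN14-1 estimate); blue is PTPN14-1, red PTPN14-2, and the marker shape gives the line. For CYR61, NUAK2, CTGF, AMOTL2 and AJUBA the 3 blue points lie above 0, and for THBS1 and TGFB2 the 3 red points lie below it.

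Genes switched on early by growth factor signals also differed between the siRNAs. FOSL1, an AP-1 subunit, and KLF6, a zinc finger factor, passed upward with PTPN14-1, at 0.49 (SE 0.10, limma adjusted p = 0.0193) and 0.55 (SE 0.11, adjusted p = 0.0171), and JUN, another AP-1 subunit, downward with PTPN14-2, at -0.57 (SE 0.09, adjusted p = 0.00964). Of 13 tested immediate early genes, 2 were thus higher with PTPN14-1 (1.91% of all tested genes) and 1 lower with PTPN14-2 (1.00%); between the siRNAs, 8 were higher with PTPN14-1 and 0 lower, against 3.92% and 4.64%. The ERK phosphatase DUSP5 passed upward with PTPN14-1 (0.52, SE 0.11, adjusted p = 0.0253), and was the only one of 17 ERK feedback genes to pass with it, against 5.0% of all tested genes. With PTPN14-2, the ephrin receptor EPHA4 passed upward (0.54, adjusted p = 0.0254) and IER3, an early response gene (-0.55, adjusted p = 0.0334), and SPRED3, an inhibitor of the pathway (-0.58, adjusted p = 0.0188), downward; neither downward call held with the GC trend subtracted (adjusted p = 0.064 and 0.0524). Between the siRNAs, 6 of the 17 were higher and 1 lower with PTPN14-1. IL6, a cytokine, was the only one of 24 NF-kB and cytokine genes past the threshold with PTPN14-1 (0.76, SE 0.15, adjusted p = 0.0161), a share near the 5.0% of all tested genes. It stood at 15.4, 60.4 and 37.0 FPKM in A704, HK2 and CAKI-1 with PTPN14-1 and at 3.79, 31.4 and 19.6 FPKM with PTPN14-2, against 6.61, 39.7 and 24.7 FPKM with LATS siRNA, so PTPN14-1 was the highest and PTPN14-2 the lowest siRNA in each line. With PTPN14-2, TNFAIP3, a feedback inhibitor of NF-kB, passed downward (-0.45, adjusted p = 0.0435), 1 of 24 against 1.54% of all tested genes. With 1 library left out, the calls of FOSL1, KLF6, DUSP5, EPHA4 and IER3 each held in 4 of 9 fits. Those of JUN and SPRED3 held in 5 of 9, that of IL6 in 6 of 9 and that of TNFAIP3 in 2 of 9.

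Of 19 tested p53 targets, 4 were higher and 1 lower with PTPN14-1 (1.91% and 3.09% of all tested genes), and 1 was higher with PTPN14-2 (0.537%). RRM2B, a ribonucleotide reductase subunit induced by p53, passed with both, at 0.56 (SE 0.11, limma adjusted p = 0.0189) with PTPN14-1 and 0.68 (SE 0.11, adjusted p = 0.0138) with PTPN14-2. It was at 23.3, 4.12 and 34.2 FPKM in A704, HK2 and CAKI-1 with PTPN14-1 and at 28.01, 4.55 and 33.8 FPKM with PTPN14-2, against 20.2, 2.36 and 18.3 FPKM with LATS siRNA, above LATS siRNA in all 6. TIGAR, which lowers glycolytic flux, passed with PTPN14-1 (0.63, SE 0.10, adjusted p = 0.00517), as did MDM2, the ubiquitin ligase of p53 (0.36, SE 0.09, adjusted p = 0.0472), and the death receptor FAS (0.49, SE 0.13, adjusted p = 0.0493). MDM2 and FAS each held in 1 of 9 fits with 1 library left out, and not under quantile normalization (adjusted p = 0.0647 and 0.0684). DDB2, a DNA damage sensor, was lower with PTPN14-1 (-0.41, SE 0.11, adjusted p = 0.0492), a call that held in 0 of 9 such fits and ended with the GC trend subtracted (adjusted p = 0.0715).

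Genes of hypoxia and glycolysis had lower estimates with PTPN14 siRNA than with LATS siRNA in 28 of 32 cases (51.0% of all tested genes), with a median of -0.15 and 7 genes lower in all 6 libraries (7.90% of all tested genes were). ENO2, the neuronal enolase, stood at 202, 33.6 and 18.0 FPKM in A704, HK2 and CAKI-1 with PTPN14-1 and at 189, 34.9 and 15.1 FPKM with PTPN14-2, against 222, 45.5 and 22.9 FPKM with LATS siRNA. LATS siRNA gave the highest level in each line. None of the 32 passed in the joint comparison, where ENO2 was at -0.34 (SE 0.09, limma adjusted p = 0.229). With PTPN14-1, BNIP3L, a mitophagy receptor, passed at -0.52 (SE 0.10, adjusted p = 0.0132) and CA12, a carbonic anhydrase, at -0.48 (SE 0.12, adjusted p = 0.0375). With PTPN14-2, the glucose transporter SLC2A3 passed at -1.11 (SE 0.09, adjusted p = 0.000193) and the stress protein NDRG1 at -1.02 (SE 0.15, adjusted p = 0.00951). The median GC content of this list was 53.9%, and its median difference was -0.0995 with the GC trend subtracted.

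Interferon response genes stood apart by siRNA. Their median was 0.05 with PTPN14-1 and -0.32 with PTPN14-2, and in the joint comparison 38 of 44 had lower estimates with PTPN14 siRNA than with LATS siRNA (median -0.15), against 51.0% lower estimates over all tested genes. With PTPN14-1 none of the 44 passed, and under quantile normalization that median was -0.0043. With PTPN14-2, IFITM2 and IFITM3, membrane proteins that block virus entry, passed downward, at -0.55 (SE 0.11, limma adjusted p = 0.0261) and -0.64 (SE 0.14, adjusted p = 0.0453), 2 of 44 against 1.00% of all tested genes; IFITM3 did not pass with the GC trend subtracted (adjusted p = 0.0679). Between the PTPN14 siRNAs, 5 of the 44 were higher and 0 lower with PTPN14-1, against 3.92% and 4.64% of all tested genes. IFITM2 and IFITM3 belong to a family of near-identical copies, so reads can be split between them.

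Actin, adhesion and matrix genes had lower estimates with PTPN14 siRNA in most cases, beside a high GC content. Of 33 actin and focal adhesion genes (median GC 56.9%), 24 had lower estimates (median -0.11, and -0.0258 with the GC trend subtracted). With PTPN14-2, PDLIM7, a PDZ and LIM protein of stress fibres, passed downward at -0.61 (SE 0.12, limma adjusted p = 0.0289). Of 28 extracellular matrix genes, 20 had lower estimates (median -0.11, and -0.042 with the GC trend subtracted). With PTPN14-1, COL8A1, a network collagen, was at -0.67 (SE 0.09, adjusted p = 0.00310) and the laminin chain LAMB2 at -0.41 (SE 0.09, adjusted p = 0.0273). The kidney cadherin CDH16 was lower with PTPN14-1 (-0.53, SE 0.13, adjusted p = 0.0391), and the tight junction protein CLDN1 higher (0.63, SE 0.09, adjusted p = 0.00474). With 1 library left out, the PDLIM7 and LAMB2 calls each held in 4 of 9 fits and the CDH16 call in 5 of 9. Those of COL8A1 and CLDN1 held in all 9. The CDH16 call also ended with a pseudocount of 0.1 (limma adjusted p = 0.0876).

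Growth and housekeeping lists are read against the 5.0% of all tested genes called with PTPN14-1 and the 1.54% called with PTPN14-2. Of 41 DNA replication genes, GINS1, a subunit of the replicative helicase, passed upward (0.42, adjusted p = 0.0469, limma) and E2F8, a repressive E2F factor, downward (-0.69, adjusted p = 0.0144) with PTPN14-1, and none passed with PTPN14-2. The GINS1 call held in 0 of 9 fits with 1 library left out, and ended under quantile normalization (adjusted p = 0.051) and with the GC trend subtracted (0.0514). None of 32 mitosis genes, 20 NRF2 antioxidant genes, 7 metallothioneins and 51 respiratory chain genes passed with either siRNA. Of 25 cholesterol synthesis genes, IDI1, an isomerase of the pathway, passed with PTPN14-2 (0.42, adjusted p = 0.0463), a call that held in 1 of 9 fits with 1 library left out and ended with the GC trend subtracted (0.0834). RPLP0, a stalk protein of the ribosome, was higher with both siRNAs and was the only one of 76 ribosomal protein entries to pass. It was at 0.55 (SE 0.11, adjusted p = 0.0152) with PTPN14-1 and 0.50 (SE 0.11, adjusted p = 0.0398) with PTPN14-2. With 1 library left out, RPLP0 passed in 4 of 9 fits for PTPN14-1 and in 1 of 9 for PTPN14-2. It stood at 939, 994 and 1145 FPKM in A704, HK2 and CAKI-1 with PTPN14-1 and at 1060, 895 and 1023 FPKM with PTPN14-2, against 600, 692 and 823 FPKM with LATS siRNA. Of 27 unfolded protein and integrated stress genes, 2 passed upward and 2 downward with PTPN14-1, and 1 downward with PTPN14-2. CALR, a chaperone of the endoplasmic reticulum, was lower with PTPN14-1 (-0.82, SE 0.12, adjusted p = 0.00366) and level with PTPN14-2 (0.01). DNAJB9, a co-chaperone, was higher with PTPN14-1 (0.51, SE 0.09, adjusted p = 0.0123). The others were XBP1 (0.33) and DDIT4 (-0.51) with PTPN14-1 and PPP1R15A (-0.41) with PTPN14-2. With 1 library left out, CALR held in 9 of 9 fits, DNAJB9 in 7, DDIT4 in 5, PPP1R15A in 1 and XBP1 in 0.

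**Figure D5:**
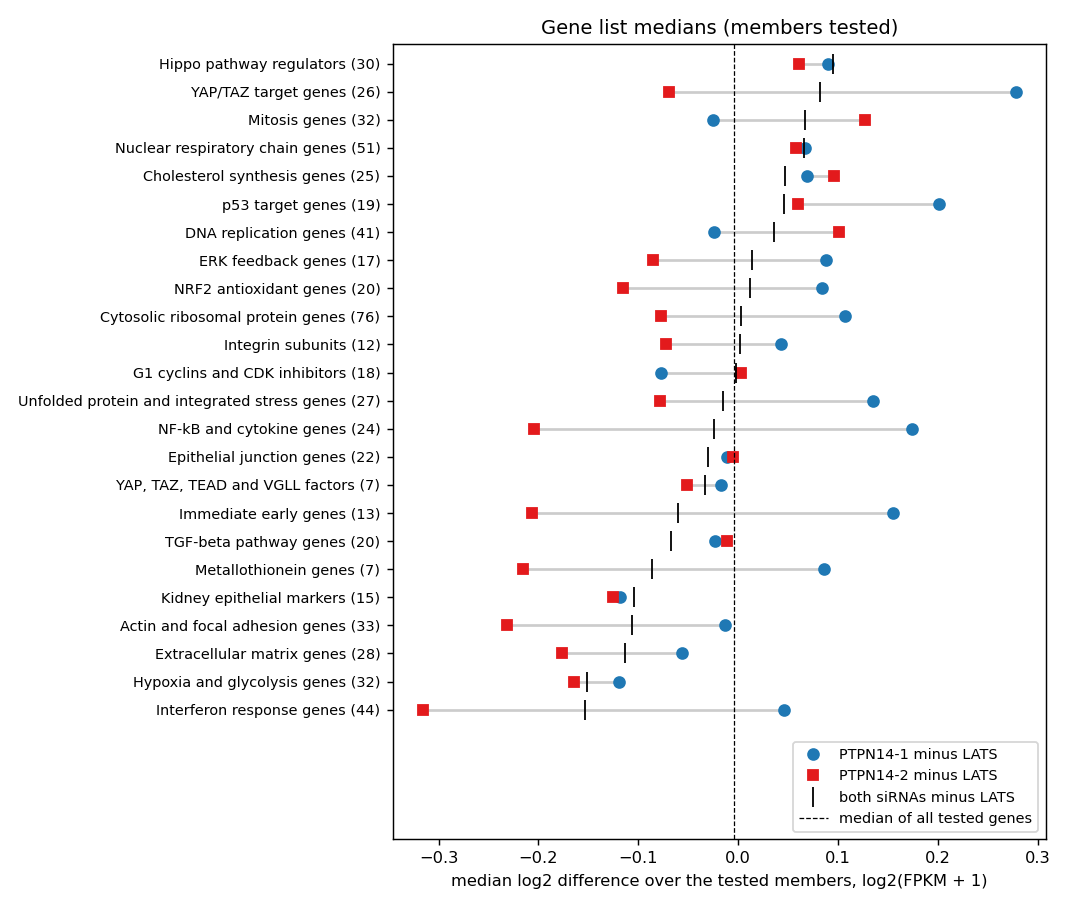
Median log2 difference from LATS siRNA (horizontal axis, log2(FPKM + 1) scale) over the tested members of each gene list (vertical axis, number tested in parentheses) for PTPN14-1 (circles), PTPN14-2 (squares) and both siRNAs jointly (ticks); the dashed line is the median of all tested genes, and lists with fewer than 7 tested members are not drawn. YAP/TAZ targets lie at 0.28 with PTPN14-1 and -0.07 with PTPN14-2, and interferon genes at 0.05 and -0.32.

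Whether the difference between PTPN14 and LATS siRNA was the same in the 3 lines was tested with 1 LATS siRNA library per line. The spread came only from the 2 PTPN14 siRNAs within each line, which differed from each other at 8.57% of genes. Absence of a call here therefore does not show that the lines responded alike. No gene passed the limma F test, where the smallest adjusted p was 0.9999 and 240 genes had an unadjusted p under 0.05 (1.98%). The smallest p belonged to LMO1, a LIM-only transcriptional cofactor. It was at 2.17 and 1.77 FPKM in CAKI-1 with the PTPN14 siRNAs, against 6.29 FPKM with LATS siRNA, and at most 0.09 FPKM in the other lines. LMO1 thus met the filter through CAKI-1 alone, and at such low levels the other lines could show almost no difference. GPC1, a glypican, was at 18.0 and 16.4 FPKM in CAKI-1, against 33.0 FPKM with LATS siRNA, while in A704 and HK2 its within-line log2 differences lay between -0.15 and 0.16. ESF1, a nucleolar protein, was at 12.1 and 13.1 FPKM in CAKI-1, against 5.37 FPKM with LATS siRNA. TNS1, a tensin of focal adhesions, was at 2.19 and 2.15 FPKM in A704, against 4.08 FPKM, and SPON2, a secreted matrix protein, at 10.6 and 8.70 FPKM in CAKI-1, against 21.0 FPKM. Of these 5, none of which passed, GPC1, ESF1 and SPON2 stood apart in CAKI-1, and LMO1 could do so in no other line. Both within-line differences of CAKI-1 also followed GC content the most closely, and a link with these genes was not tested. With the GC trend subtracted 0 genes passed again, with 131 at an unadjusted p under 0.05.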

How the data were processed

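A single table of FPKM values by gene symbol was deposited by the authors for 12 libraries, and 9 of its columns were used. The unit was inferred from the values: they are not whole, and their lowest step shrinks with gene length. STAR 2.4.0g1 and the build GRCh38.p1 are named in the submitters' processing notes; the gene counter, its strand setting and the library scaling are not stated there, so the depth is an estimate. Of 20979 entries, 29 carry dates in place of symbols and are named nowhere. The 1 and 2 of the PTPN14 siRNAs are swapped between titles and descriptions; those of the titles were used.

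Genes above 1 FPKM in at least 3 of the 9 libraries were tested as log2(FPKM + 1), a scale that understates differences of low genes. The models were fitted in R 4.3.3 by limma 3.58.1 (mean-variance trend, robust moderation through statmod 1.5.0), with Benjamini-Hochberg adjustment over all 12103 genes and a threshold of 0.05. The joint model held siRNA target and, as a block, the cell line, with 5 residual degrees of freedom; a model with 3 reagents (4 degrees of freedom) gave each PTPN14 siRNA; a model of line and target groups (3 degrees of freedom, all from the PTPN14 pairs) gave the F test between lines. Libraries of 1 line pair because they are the same cell line; their deviations from the reagent means correlated at 0.959 to 0.976, against -0.652 to -0.381 between libraries of different lines. The fits were checked on simulated data.

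Named genes are PTPN14, LATS1, LATS2, YAP1 and WWTR1. To these come up to 12 genes in each direction past the threshold. They have a mean above 1 FPKM and 1 direction in all 6 within-line differences. Where fewer than 5 passed, the 5 with the smallest p were taken. Each list adds up to 4 members with the smallest p. Values are given for those at an unadjusted p under 0.05 or past the threshold with 1 siRNA. The last are the 5 with the smallest p between lines. The members and lists were chosen with earlier results of these data known. GC content is that of the longest coding transcript in GENCODE 29; coordinates are from the same release and promoters from RefSeq.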

Additional observations from a re-analysis of the deposited data

Results flagged for a closer look

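The level of PTPN14 differed between its siRNAs. It was lower with PTPN14-1 than with PTPN14-2, at a log2 difference of -0.44 (limma adjusted p = 0.0447, n = 3 against 3), in 3 of 3 lines. Both estimates against LATS siRNA passed, at -1.84 (SE 0.12) with PTPN14-1 and -1.40 (SE 0.12) with PTPN14-2.

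LATS2 was higher with PTPN14-1 than with PTPN14-2 by 0.40 (adjusted p = 0.0270), again in 3 of 3 lines, while neither siRNA passed against LATS siRNA for this gene (0.35, adjusted p = 0.0613, with PTPN14-1 and -0.05, adjusted p = 0.775, with PTPN14-2). The 13 genes examined were PTPN14, LATS1, LATS2, the coactivators and the leading genes. Among these, no library stood apart from the other 5 within-line differences of its gene by Dixon's criterion. Chance exceeds that criterion in about 1 of 20 groups.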

How the results depend on the processing

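For the joint comparison the count of 6 was 4 to 8 with a pseudocount of 0.1, no filter on low values, quantile normalization, no trend or robust moderation, or the GC trend subtracted. It was 190 with the mean of both siRNAs from the reagent model, 0 with no replicate block, and 0 to 8 when 1 library was left out. It was 1 without A704, 0 without HK2 and 0 without CAKI-1. The block for cell line pairs libraries of the same line and, with lines this far apart, every call of the 3 comparisons rests on it.

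For PTPN14-1 the count of 605 was 72 with no filter, 0 with no replicate block, 354, 39 and 63 without A704, HK2 and CAKI-1, and 105 to 652 when 1 library was left out. For PTPN14-2 the count of 186 was 38 with no filter, 0 with no replicate block, 62, 30 and 34 without A704, HK2 and CAKI-1, and 48 to 285 when 1 library was left out. Leaving out libraries leaves fewer samples. Without the filter 16989 genes in place of 12103 enter both the tests and the fit of the mean-variance trend. What moved the counts was not tested. The count between lines was 0 in all alternatives run for it; fits without a LATS siRNA library or without the block could not be made there. With the GC trend subtracted, 466 of the 605 and 120 of the 186 genes passed again, among 693 and 164.

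No difference of a named gene past the threshold changed sign in any alternative run. Among the 180 named genes with a GC content, 4 joint, 10 PTPN14-1 and 17 PTPN14-2 estimates changed sign with the GC trend subtracted, none past the threshold before or after; the PTPN14-2 estimate of AMOTL2 came to 0.009 and that of YAP1 to -0.015, against -0.09 and 0.05 without it. Of the 6 joint calls, LATS1 and E2F5 passed in 8 of 9 fits with 1 library left out, PTPN14, NCEH1 and ACTR1A in 6 of 9 and ZNF395 in 5 of 9, with adjusted p up to 0.0586, 0.0531, 0.151, 0.122, 0.115 and 0.288. The levels of LATS1 and ZNF395 lay at a few FPKM in some libraries, and whether depth affected their calls was not tested.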
